A study of Mus musculus with 16 samples.

Results

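The genes described here are 46 protein-coding autosomal genes whose level in dystrophic tibialis anterior muscle was higher when miR-133b was also lost, while dystrophin loss by itself left their mean close to Control. They were chosen by their own group means: the mdx to Control ratio had to lie between 0.75 and 1.33, and the mdx/miR-133b-/- to mdx ratio had to be at least 1.4. Of the 831 genes in the deposited table, 788 are protein coding, 739 were eligible and 170 of these lay inside the mdx to Control bounds. Both conditions were met by 55 listed genes, of which 9 were left out: 4 on the X chromosome, 3 that do not code for protein and 2 of 7 symbols set aside beforehand. The means of Control, mdx and mdx/miR-133b-/- therefore fixed who the members are, so their differences in mdx/miR-133b-/- against mdx and in mdx against Control are given as descriptions. The mdx libraries enter both conditions.

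RNA came from whole tibialis anterior muscle at postnatal day 30 in 4 groups of 4 libraries. Control is labelled wild type. The miR-133b-/- group lacks the microRNA, the mdx group carries the mdx change (mdx-/- in the labels), and the mdx/miR-133b-/- group, the double mutant, carries both. No treatment is listed, and the labels used here give neither strain nor sex. Values are read counts that the authors multiplied by 1 factor per library, called scaled reads below. The table is a selection: in each listed gene the double mutant and miR-133b-/- means differ by at least 1.72-fold, higher or lower.

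The mdx mouse carries a mutation in Dmd, the gene for dystrophin, which ties the fibre's cytoskeleton to a membrane complex of dystroglycans, sarcoglycans and syntrophins. Its muscle passes through rounds of fibre damage and repair and serves widely to model Duchenne muscular dystrophy. The muscle microRNA miR-133b is made from the same primary transcript as miR-206. A microRNA guides a silencing complex to 3′ UTRs that pair with its seed, which lowers the level or the translation of those messages, and miR-133a carries the same seed as miR-133b.

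The mature 3p strand of miR-133b is shown because its seed defines the sites searched for in the 46 genes. It is read from RefSeq (GRCm38.p6, chr1:20682834-20682855, plus strand), with the seed, bases 2 to 8, in capitals.
mmu-miR-133b-3p: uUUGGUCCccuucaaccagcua

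A match to this seed, GGACCAA on the sense strand of an annotated 3′ UTR (GENCODE M21, GRCm38), was found in 8 of the 46 genes, or 17.4%, against 72 of 779 listed genes with a 3′ UTR, or 9.24%. The 8mer form, GGACCAAA, has an A opposite the first base of the microRNA. It occurred in 5 of the 46 (10.9%) and in 21 of the 779 (2.70%). The 5 sites of the 8mer form are shown with their surroundings and with the site in capitals, since these are the members whose messages pair most fully with the seed. Casc4, which has a shorter match, is added because it was among the members with the largest ratios.
Pi15 (chr1:17626394-17626401, plus strand): ccttataagaaGGACCAAAgtatgcacact
Edem1 (chr6:108859250-108859257, plus strand): tttttgtaaaaGGACCAAAtgttcttttat
Sntb2 (chr8:107018707-107018714, plus strand): ctagtcctataGGACCAAAgaagggctttc
Ypel2 (chr11:86938391-86938398, minus strand): gtttgggggtgGGACCAAAactcatcaggc
Sox4 (chr13:28950342-28950349, minus strand): accacaattcaGGACCAAAttttttctccg
Casc4 (chr2:121935635-121935641, plus strand): tgaggaatcttGGACCAAttgataatattt

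The 3′ UTRs of the 46 genes are long, with a median of 2229 bases against 1243 for all listed genes. Counted per length over the longest transcript, the 46 genes held 0.0773 sites per kb and all listed genes 0.0542, and the 8mer stood at 0.0351 and 0.0144 per kb. A mirrored rule, with the same bounds for mdx and a lower level in the double mutant, picked 82 genes, which held 0.0855 sites per kb, more than the 46, and 0 of the 8mer. The other genes with a match were Ugcg, with 1 site, Zfp81, with 2, and Edem1 and Ypel2 each had a further site of 7 bases.

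Over the 46 genes the median double mutant to mdx ratio was 1.68, against 0.997 over all 831 listed genes. The median mdx to Control ratio was 1.17 (1.35 over all, and 0.918 over the 170 eligible genes inside the same bounds). It was above 1 in 41 of the 46, in 503 of the 831 and in 65 of the 170. With the authors' factors the 46 thus leaned upward in mdx within the bounds. Their median log2 difference of mdx and Control was 0.23 (0.44 over all). With relative log expression factors it was -0.12 (0.09 over all), so the lean depends on the scaling. The selection of the listed genes by double mutant against miR-133b-/- may also favour it, so nothing is read from it. In muscle with dystrophin the median miR-133b-/- to Control ratio was 1.0 (0.973 over all), with 23 of the 46 above 1. In 31 of the 46 genes every double mutant library lay above every mdx library, and 10.3% of listed genes separate that way. Limma called 31 of the 46 higher in the double mutant than in mdx, where 7.46% of listed genes were called higher. The double mutant libraries lay above all 12 other libraries in 20 of the 46, against 8.06% of listed genes. All of these counts use libraries whose means chose the genes, so the excess over all listed genes is built in and carries no weight as evidence.

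**Figure D1:**
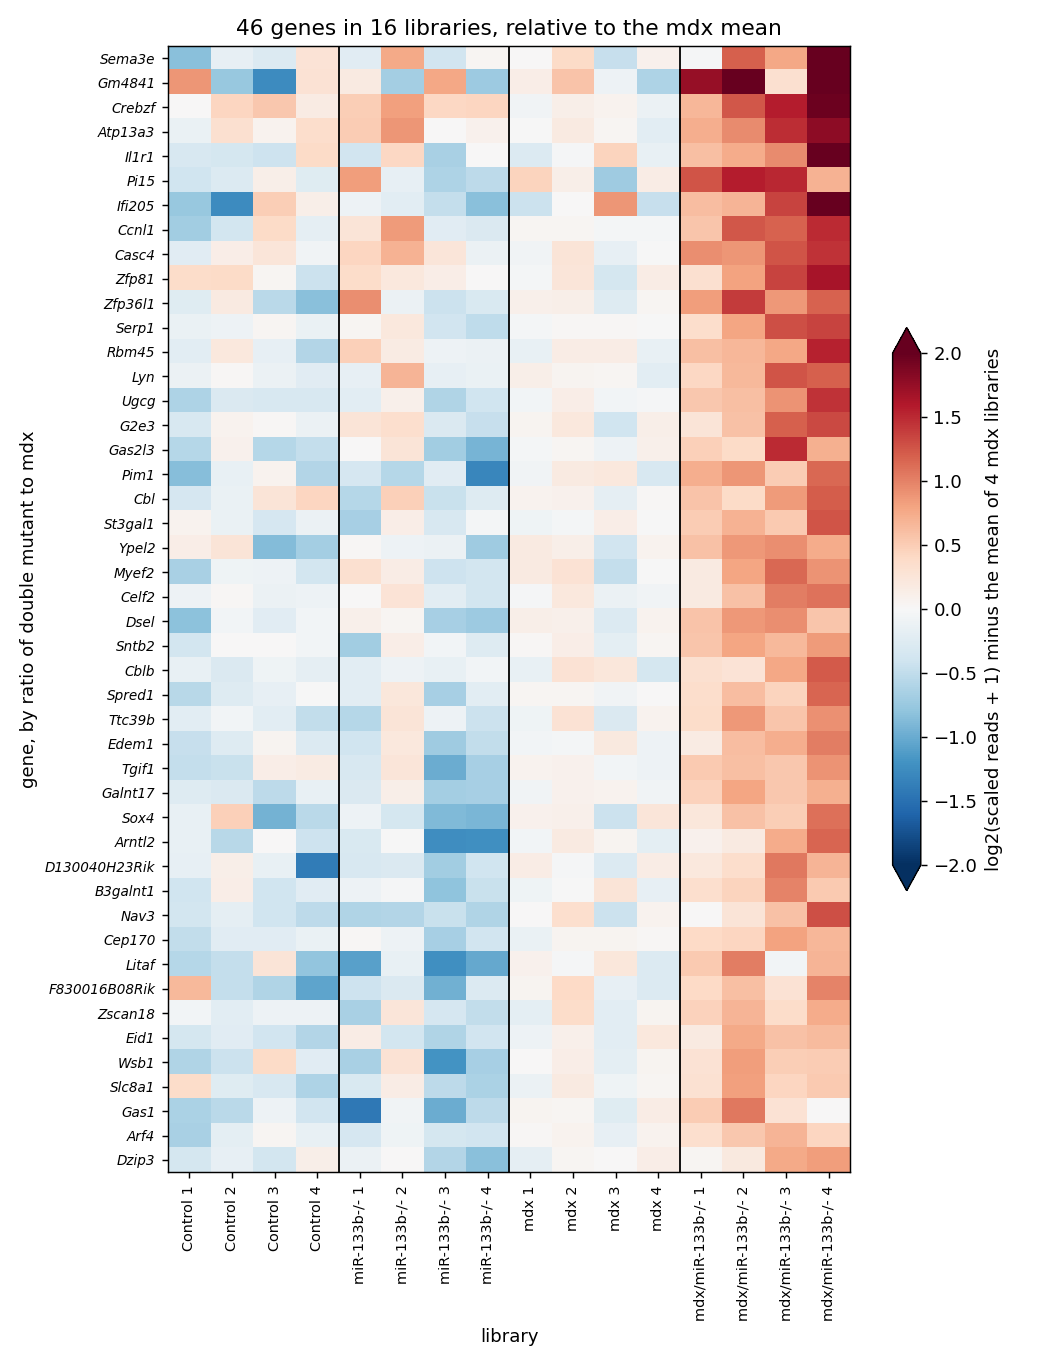
The 46 genes (rows, by ratio of double mutant to mdx) in the 16 libraries (columns), coloured by log2(scaled reads + 1) minus the mean of the 4 mdx libraries; red is higher and colours saturate at the ends of the scale. The mdx/miR-133b-/- columns are red in most rows, and library 4 of that group is the highest of the 4 in 29 genes.

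The 4 double mutant libraries did not contribute alike. The median log2 difference of the 46 genes from the mdx mean was 0.44 in mdx/miR-133b-/- 1, 0.72 in library 2, 0.78 in library 3 and 1.09 in library 4. The mdx libraries lay between -0.10 and 0.11, the Control libraries between -0.33 and -0.11 and the miR-133b-/- libraries between -0.45 and 0.13. Library 4 was the highest of the 4 double mutant libraries in 29 genes, library 3 in 9 and library 2 in 8, and library 1 was the lowest in 34. The share of listed reads from mitochondrially encoded genes had the same order, from 22.4% in double mutant library 1 through 28.9% in library 2 and a slightly higher share in library 3 to 34.3% in library 4, against 23 to 27.3% in mdx and 30.2 to 39.2% in Control and miR-133b-/-. Its part in the result was not tested.

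Leaving out a library moved the counts. Limma called 8 of the 46 higher without mdx/miR-133b-/- 4, 14 without mdx/miR-133b-/- 3 and 21 without mdx/miR-133b-/- 2. Of all 831 listed genes it called 18, 28 and 53 higher in these fits, against 62 with all libraries. Without mdx/miR-133b-/- 1 the counts were 32 and 68. Without mdx 1, 2, 3 and 4 it called 14, 20, 12 and 15 of the 46 higher. The counts over the 831 were then 26, 38, 27 and 29, so calls were lost beyond the 46 as well. The 46 were chosen on this contrast. Atp13a3, Casc4, Ccnl1, Crebzf, Serp1, Ugcg and Zfp36l1, 7 genes, were called in each of the 16 fits that left out 1 library. The rule itself returned 40 to 54 genes when a library was left out, and 20 of the 46 stayed in every such set.

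**Figure D2:**
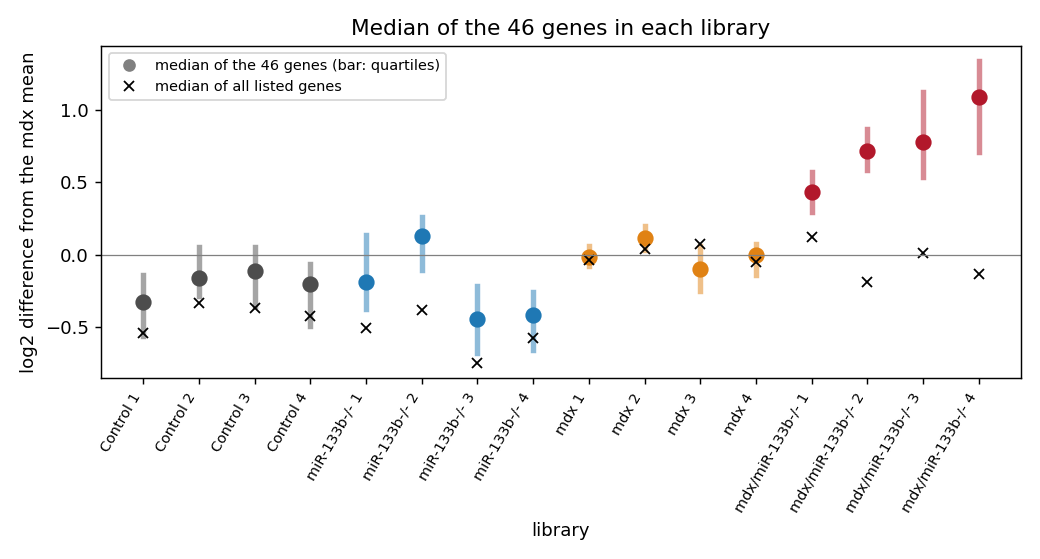
Median log2 difference from the mdx mean over the 46 genes (points, with quartiles as bars) and over all 831 listed genes (crosses), by library. The 4 mdx/miR-133b-/- libraries run from 0.44 to 1.09 for the 46 genes, above the other 12 libraries, while the median of all listed genes in these 4 lies between -0.19 and 0.13.

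To order the values, the 46 genes were sorted by textbook role after they were known. The largest set, 12 genes, acts in transcription and on RNA. Its double mutant to mdx ratios ran from 1.46 to 2.71. In 7 of the 12 the double mutant and mdx libraries did not overlap, as in 31 of the 46, chosen on this contrast, and 10.3% of listed genes. Crebzf, a leucine zipper regulator that binds other transcription factors, had the largest ratio of the set. It was read at 312, 418, 449.7 and 346 scaled reads in the Control libraries, 438, 545, 413 and 418 in miR-133b-/-, 294, 338, 325 and 286 in mdx and 493, 734, 926 and 1210.1 in mdx/miR-133b-/-. The double mutant libraries were the high ones, 2.71 times the mdx mean, and double mutant library 1 lay below 1 miR-133b-/- library. Crebzf also had the lowest mdx to Control ratio of the 46, 0.814. It lies on chromosome 7 (90442729 to 90447994, plus strand). Gene coordinates here and below are those of GENCODE M21 on GRCm38.

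Ccnl1, cyclin L1, is a partner of cyclin-dependent kinases and of splicing factors (chr3:65946151-65958249, minus strand). It was read at 703, 886, 1495 and 1014 scaled reads in the Control libraries, 1371, 2059, 978 and 934 in miR-133b-/-, 1179, 1173, 1111 and 1116 in mdx and 1674, 2697, 2608 and 3209 in mdx/miR-133b-/-. The 4 mdx libraries lay close together and all double mutant libraries lay above them (2.22 times the mean), while miR-133b-/- 2 reached into the double mutant range. Per kb of its longest transcript Ccnl1 was the most abundant of the 46 in the double mutant, at 1174 scaled reads per kb, where the median gene stood at 94.3.

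Zfp36l1 binds AU-rich elements in messages and promotes their decay (chr12:80107754-80113013, minus strand). It was read at 484, 648, 396 and 322 scaled reads in the Control libraries, 1090.0, 530.4, 427 and 466 in miR-133b-/-, 615, 621, 481 and 590.5 in mdx and 1025, 1510.1, 1042 and 1302 in mdx/miR-133b-/-. All double mutant libraries lay above all mdx libraries, with a ratio of means of 2.12. Library miR-133b-/- 1 stood at the double mutant level, apart from the other 3 of its group.

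Rbm45, an RNA-binding protein, was read at 302, 316, 342 and 579 scaled reads in the double mutant libraries, 385 ± 130.5 (SD, n = 4) and 1.92 times the mdx mean. All 4 lay above the other 12 libraries, and library 4 stood apart. Celf2, a splicing regulator and the member with the highest scaled reads, was read at 2189.5, 2560.0, 2049 and 2119 in mdx and at 2518, 3344, 4497 and 4702 in the double mutant, so the groups overlapped at double mutant library 1. Myef2, an RNA-binding repressor, had a mean of 264 ± 57.8 in mdx and of 449.7 ± 117 in the double mutant (SD, n = 4 each), again overlapping.

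Sox4, a transcription factor of progenitor cells, was read at 380.2, 588, 218 and 291 scaled reads in the Control libraries, 395, 331, 228 and 223 in miR-133b-/-, 448, 451, 314 and 502 in mdx and 494, 636, 594 and 904 in mdx/miR-133b-/-. Its double mutant to mdx ratio was 1.53 and the groups overlapped. Without mdx/miR-133b-/- 4 the ratio was 1.34, below the minimum of the rule. Zfp81 and Zscan18, zinc finger proteins, had ratios of 2.16 and 1.47 with no overlap between double mutant and mdx. For Zfp81, double mutant library 1 (122) lay below Control 1 and 2 (125.1 and 126.3) and miR-133b-/- 1 (126). For Zscan18, the lowest double mutant library (117.8) lay just above the highest mdx library (117.4). Tgif1, a homeodomain repressor in the TGF-beta pathway (1.57), Arntl2, a relative of the clock activator Arntl (1.52), and Eid1, an inhibitor of the acetyltransferase EP300 (1.46), complete the set.

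**Figure D3:**
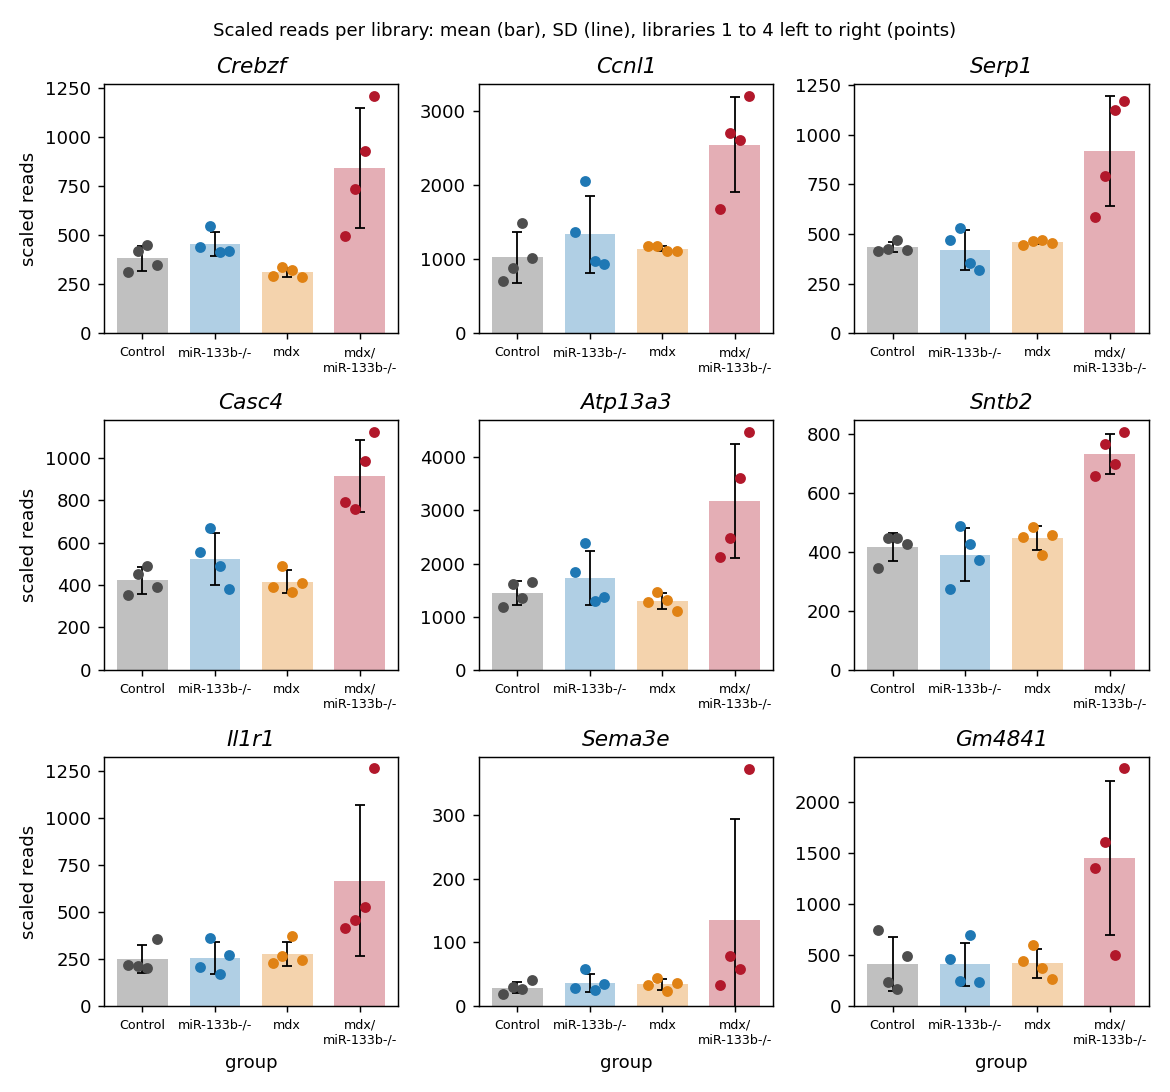
Scaled reads of 9 of the 46 genes in each group: bars are means, lines SD, points the 4 libraries in order of replicate number (n = 4 per group). The double mutant bar is the tallest in every panel, and in Il1r1 and Sema3e 1 point, library 4, lies far above the other 3; the lower SD line of Sema3e is hidden at the axis.

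Of 6 genes of the secretory pathway and of membrane transport, 5 had double mutant libraries that did not overlap with mdx, as had 31 of the 46, chosen on this contrast, and 10.3% of listed genes. Serp1 protects newly made membrane proteins in the endoplasmic reticulum under stress (chr3:58519817-58525892, minus strand). It was read at 417, 426, 472 and 421 scaled reads in the Control libraries, 472, 532, 352 and 322 in miR-133b-/-, 447, 467, 469 and 455 in mdx and 587, 795, 1127 and 1171 in mdx/miR-133b-/-. The double mutant libraries lay above the other 12, with a ratio to mdx of 2.0. Edem1, which takes misfolded glycoproteins out of the endoplasmic reticulum for degradation, stood at 499, 683, 736 and 908 in the double mutant against 432, 433, 513 and 416 in mdx, so that double mutant library 1 overlapped with mdx.

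Casc4, a membrane protein of the Golgi (chr2:121866970-121936220, plus strand), was read at 351, 453, 489.9 and 393 scaled reads in the Control libraries, 556, 667, 488 and 379 in miR-133b-/-, 393, 491, 369 and 409 in mdx and 789.5, 760.0, 985 and 1121 in mdx/miR-133b-/-. The double mutant libraries lay above all others, at 2.20 times the mdx mean. Atp13a3, a transporter of polyamines (chr16:30312423-30405975, minus strand), was read at 1181, 1609.6, 1360.1 and 1655 in Control, 1843, 2388, 1297 and 1365 in miR-133b-/-, 1287, 1464, 1322 and 1113 in mdx and 2127, 2479.6, 3606 and 4477 in mdx/miR-133b-/-. Its double mutant to mdx ratio was 2.45, and miR-133b-/- 2 lay above double mutant library 1. Arf4, a small GTPase of Golgi traffic, had a ratio of 1.41 and stood at 861 to 1098 in the double mutant, above the other 12 libraries. Slc8a1, the sodium-calcium exchanger of the plasma membrane, had a ratio of 1.44.

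The 46 genes held 5 enzymes that build glycans or glycolipids: Ugcg, which makes glucosylceramide, the sialyltransferase St3gal1, the globoside synthase B3galnt1, Galnt17 of the family that starts O-linked chains, and Dsel, related to the dermatan sulfate epimerase. Their ratios of double mutant to mdx ran from 1.51 to 1.89. In all 5 the double mutant libraries lay above the other 12 libraries, as in 20 of the 46 and 8.06% of listed genes, a count that the choice of genes favours. Ugcg (chr4:59189257-59222833, plus strand) was read at 418, 524, 513 and 510.5 scaled reads in the Control libraries, 552, 687, 422 and 482 in miR-133b-/-, 616, 698, 616 and 628 in mdx and 927, 973, 1191 and 1737 in mdx/miR-133b-/-. Its mdx libraries lay above its Control libraries with no overlap, at 1.3 times the mean. St3gal1 averaged 249 ± 16 in mdx and 427 ± 116 in the double mutant, Dsel at 154 ± 18.3 and 256 ± 35.5, Galnt17 at 269 ± 15.6 and 417 ± 45.6 and B3galnt1 at 82.1 ± 10.9 and 124 ± 26.8 (SD, n = 4 each). The set was put together after the values were seen.

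Among receptors and signalling proteins, Il1r1, the receptor for interleukin-1, was read at 220.1, 215, 205 and 359 scaled reads in the Control libraries, 210.0, 365, 174 and 274 in miR-133b-/-, 228, 269, 372 and 247 in mdx and 415, 459, 527 and 1262 in mdx/miR-133b-/-. The double mutant libraries lay above the other 12, with library 4 at more than any other library. The ratio to mdx was 2.39, and 1.67 without that library. Lyn, a Src family kinase, averaged 476 ± 46.7 in mdx and 900.5 ± 249 in the double mutant, where the libraries were at 633, 745, 1134 and 1089.6 and did not overlap with mdx. Spred1, which restrains Ras signalling, had a ratio of 1.60, and Pim1, a kinase induced by cytokines, 1.77, each with all double mutant libraries above the other 12. Litaf, an endosomal membrane protein, had a ratio of 1.5 with overlap.

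Of 5 genes that act with ubiquitin, Cbl and Cblb are related E3 ligases that take activated receptors and kinases out of signalling. Cbl was read at 413, 478, 623 and 706 scaled reads in the Control libraries, 353, 725, 385 and 439 in miR-133b-/-, 547, 558, 462 and 530.4 in mdx and 778, 681, 939.7 and 1209 in mdx/miR-133b-/-. Its double mutant libraries lay above mdx (1.72 times), but 1 miR-133b-/- and 1 Control library lay above double mutant library 2. Cblb stood at 475, 461, 649.7 and 893 in the double mutant and at 343, 464, 444 and 296 in mdx, a ratio of 1.60 with overlap at library 2. The E3 ligase genes G2e3 (1.84) and Dzip3 (1.41) and the ligase subunit Wsb1 (1.46) make up the rest.

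Sntb2 encodes beta-2 syntrophin, an adaptor of the membrane complex that dystrophin anchors (chr8:106935750-107019714, plus strand). It was read at 347, 447, 448 and 427 scaled reads in the Control libraries, 276, 488, 427 and 372 in miR-133b-/-, 452, 486, 391 and 458 in mdx and 658, 768, 700.0 and 807 in mdx/miR-133b-/-. The other groups shared 1 range and the double mutant libraries lay above it, at 1.64 times the mdx mean. Of the 46 genes its ratio moved least when a double mutant library was left out, to 1.59 without library 4. Cep170 of the centrosome and Gas2l3, which links actin to microtubules, also had all double mutant libraries above the other 12 (ratios 1.5 and 1.8). Nav3, a microtubule-binding protein, had a ratio of 1.51, and 1.22 without mdx/miR-133b-/- 4.

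Pi15, a secreted protein that inhibits peptidases, was read at 70.0, 76.4, 100.2 and 78.4 scaled reads in the Control libraries, 167, 82.8, 60.3 and 64.0 in miR-133b-/-, 127, 100.3, 56.3 and 103 in mdx and 222, 277, 265 and 151 in mdx/miR-133b-/-. Here library 4 was the lowest of the double mutant group, and all 4 lay above mdx, at 2.37 times the mean, while miR-133b-/- 1 lay above library 4. Sema3e, a secreted semaphorin, had the largest ratio of the 46, 3.90, with 33.5, 78.9, 58.9 and 371 in the double mutant against 34.1, 44.7, 24.3 and 35.9 in mdx. The ratio rests on library 4: without it, it was 1.64, and Sema3e is the member whose ratio moved by more than 1.5 times when a double mutant library was left out. Gas1, a surface protein that modifies Hedgehog signalling, had a ratio of 1.43 with overlap.

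Interferon-inducible families gave 3 genes, none of which separated the double mutant from mdx in every library. Gm4841, a predicted interferon-inducible GTPase gene, was read at 746, 238, 168 and 495 scaled reads in the Control libraries, 460.0, 252, 694 and 243 in miR-133b-/-, 445, 604, 377 and 263 in mdx and 1357, 1606, 502 and 2329 in mdx/miR-133b-/-. Double mutant library 3 stayed within the mdx range and the other 3 lay above it, for a ratio of 3.43. Its neighbour F830016B08Rik, 20.1 kb away on chromosome 18 and of the same family, stood at 1848, 2139, 1714 and 2793 in the double mutant and 1452, 1846, 1248 and 1164 in mdx (1.49). Members of this family resemble each other, and how reads shared between them were counted is not stated, so both values are uncertain. Ifi205 had a ratio of 2.32 with overlap. Ypel2, of the yippee family (1.71), Ttc39b (1.60) and the predicted gene D130040H23Rik (1.52) complete the 46, each with the double mutant above the other 12 libraries.

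The rule did not use miR-133b-/- against Control, the loss of the microRNA where dystrophin is present. The selection of the listed genes did use the miR-133b-/- libraries. In all 46 genes the double mutant mean was above the miR-133b-/- mean, and that selection held it at least 1.72-fold above. This caps how far miR-133b-/- could rise above Control, so a lack of increase is partly built in. The comparison is given as a description. Of the 46 genes, limma called 0 between miR-133b-/- and Control, and 0.0% of all 831 listed genes were called. At an unadjusted p under 0.05 the counts were 0 of the 46 and 84 of 831 (10.1%); limma-voom on the recovered reads also called 0, with 0 of the 46 and 61 of 831 unadjusted. The smallest p among the 46 was that of Litaf (-0.48 on the log2 scale, SE 0.29, limma adjusted p = 0.623), which was lower in miR-133b-/-. The largest increase was in Zfp36l1 (0.38, SE 0.26, limma adjusted p = 0.699), where library miR-133b-/- 1 stood apart. Log2 differences above 0 were seen in 21 genes and below 0 in 25. The 95% interval of the difference reached a median of 0.50 to each side on the log2 scale: it lay below a ratio of 1.4 in 27 genes and included that ratio in 19. In those 19 an increase as large as the rule asks for in mdx muscle lay within the interval. The selection of the listed genes limits these estimates as well, so the 27 intervals do not show that such an increase was absent.

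Means in miR-133b-/- were at least 1.2 times Control in Zfp36l1 (1.36), Ccnl1 (1.3), Casc4 (1.24) and Rbm45 (1.22), and in Sema3e, at 36.9 against 29.4 scaled reads. None of the 46 had miR-133b-/- and Control libraries that did not overlap, against 4.69% of listed genes. The selection of the listed genes limits increases in this count too. Within the miR-133b-/- group library 2 had the highest median over the 46 genes, 0.13 on the log2 scale relative to mdx, and libraries 3 and 4 the lowest, -0.45 and -0.42.

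**Figure D4:**
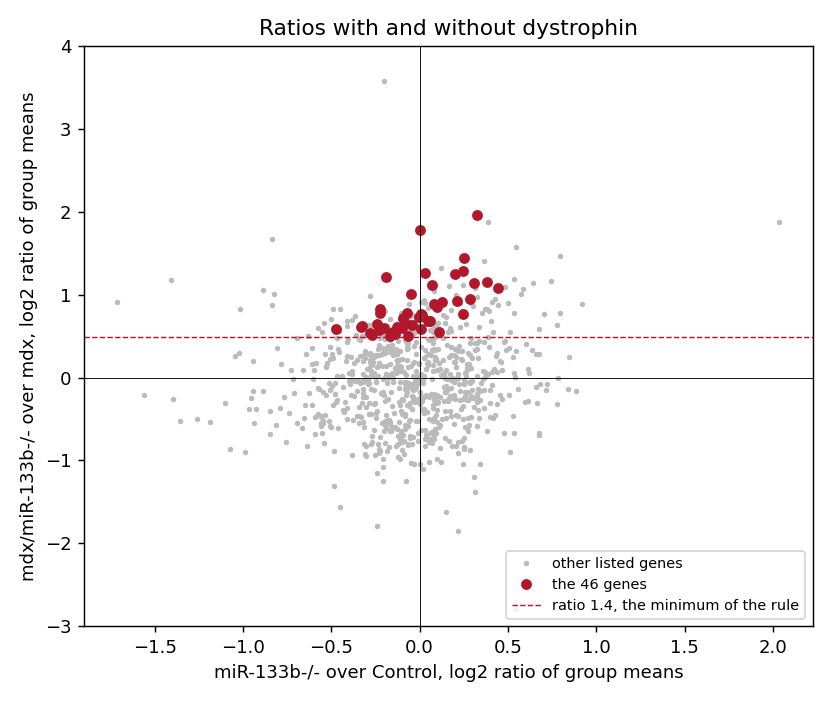
Log2 ratio of miR-133b-/- to Control means (x axis) against log2 ratio of mdx/miR-133b-/- to mdx means (y axis) for the listed genes, with the 46 genes in red and the minimum ratio of the rule as a dashed line; 3 genes below the axis and 1 with a mean of 0 are not drawn. The red points lie above the dashed line by construction and spread to both sides of 0 on the x axis, between ratios of 0.721 and 1.36.

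The interaction sets the difference between double mutant and mdx against that between miR-133b-/- and Control, and asks whether the loss of miR-133b acted otherwise in mdx muscle. It holds the contrast that chose the genes. The bounds of the rule and the selection of the listed genes together put it above 0 on group means in every member. It is therefore a description. It was called by limma in 0 of the 46 and in 0.963% of listed genes, 0.12% higher and 0.842% lower (limma-voom, 0 of the 46). At an unadjusted p under 0.05 it passed in 31 of the 46 and in 20.7% of listed genes (29 of the 46 and 166 of the 831 with limma-voom). That count depended on the scaling: with relative log expression factors it passed in 7 of the 46 and 160 of the 831. With each library's GC and length trend removed it passed in 18 and 120. Without Control 3 it passed in 18 of the 46, and without mdx/miR-133b-/- 1 in 41. Its median over the 46 genes was 0.75 on the log2 scale. Without miR-133b-/- 2 the interaction was called in 16 of the 46, and in 110 of all listed genes against 8 with all libraries. That the increase belongs to the double mutant alone thus describes group means.

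In mdx against Control limma called 0 of the 46, where 66.2% of listed genes were called, 44.5% higher and 21.7% lower; the bounds of the rule leave little room for a call. At an unadjusted p under 0.05 the counts were 0 with limma, where 69.3% of listed genes passed, and 0 with limma-voom. In 4 genes, Ugcg, Eid1, Galnt17 and Cep170, the mdx libraries lay wholly above Control, against 70.4% of listed genes whose libraries did not overlap. Compared with Control, the double mutant had a median ratio of 1.92 over the 46 genes, and its libraries lay above all Control libraries in 36 of the 46 (44.9% of listed genes). The bounds of the rule put the double mutant mean above Control in every member, so nothing is read from this count. Against miR-133b-/- the median ratio was 1.95 and the libraries lay above in 32 of the 46 (47.9%), a count that rests on the same double mutant libraries and on a contrast by which the listed genes were selected.

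The values on each side of the thresholds were as follows. Just inside the minimum ratio of double mutant to mdx were Dzip3 and Arf4, both at 1.41, and just outside were Hells at 1.38 and Nisch at 1.36. At the upper bound of mdx to Control, Gas1 (1.33) and Eid1 (1.31) were inside, and Eps8 (1.34) and Il4ra (1.35) outside. At the lower bound the nearest members were Crebzf (0.814) and Atp13a3 (0.893), and the nearest genes outside were Hrasls (0.558) and Thrb (0.553). Members and excluded genes thus lay close together at the minimum ratio of double mutant to mdx and at the upper bound, and apart at the lower bound.

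The 8 members with a seed match had a median double mutant to mdx ratio of 1.8 and a median miR-133b-/- to Control ratio of 1.03. For the 5 with the 8mer these medians were 1.64 and 0.945, and for the 38 members without a match 1.63 and 0.985. Among the 5, the miR-133b-/- to Control ratio was 1.15 in Pi15, 1.01 in Ypel2, 0.945 in Edem1, 0.937 in Sntb2 and 0.797 in Sox4, and none was called. The search reads letters in annotated 3′ UTRs and does not show binding.

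Promoters, from 250 bases before to 50 bases after the RefSeq start site, were matched for 36 of the 46 genes and searched on both strands for 5 motifs. The palindrome TGACGTCA, the cyclic AMP response element bound by CREB-type factors, is shown because 3 members share it: it occurred in 8.33% of the 36, in 3.49% of 573 eligible genes and in 2.03% of 27025 genes. The windows below give it in capitals, 18 bases before the start site in Ccnl1, 38 in Wsb1 and 48 in Zscan18.
Ccnl1 (GRCm38.p6, chr3:65958249-65958278, minus strand): tgtcggcgtggTGACGTCAgggcggaagcg
Wsb1 (GRCm38.p6, chr11:79254715-79254744, minus strand): gcctgatggtcTGACGTCAcccactacacc
Zscan18 (GRCm38.p6, chr7:12803668-12803697, minus strand): tcagcttttagTGACGTCAggcagctcagg

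The first 6 letters alone, TGACGT, occurred in 4 of the 36 (11.1%, Crebzf being the fourth) against 9.25% of eligible genes; each TGACGTCA also holds them. The interferon-stimulated response element, searched as a pair of GAAA runs with 2 free bases between them, occurred in Ifi205 and Serp1, 5.56% against 3.66%. Ifi205 is shown because it belongs to an interferon-inducible family and has a match on each side of its start site, the second on the opposite strand.
Ifi205 before the start site (GRCm38.p6, chr1:174031870-174031899, minus strand): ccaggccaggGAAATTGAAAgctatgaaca
Ifi205 after the start site (GRCm38.p6, chr1:174031713-174031742, minus strand): ataccccattTTTCACTTTCtcagttactg

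The E-box CACGTG and the STAT motif TTCNNNGAA each occurred in 11.1% of the 36, against 8.03 and 9.77% of eligible genes. These are counts of letters in a window.

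Most of the 46 genes had low GC content, and more of them were long than short. The median GC content of the longest transcript was 43.8% in the 46, 49.6% in all listed genes and 53.1% in the 82 genes of the mirrored rule. In 38 of the 46 GC content was below the median of all listed genes, the exceptions being Crebzf, Sox4, Zscan18, Galnt17, Pim1, St3gal1, Gas1 and Litaf. Median transcript length was 4703 bases in the 46, 3205 in all listed genes and 1915.5 in the mirrored set, and 30 of the 46 were longer than the median of all listed genes. Across the 831 genes, which are not independent, the log2 difference of double mutant and mdx had a Spearman rho of -0.51 with GC content and 0.36 with length; for miR-133b-/- and Control the rho with GC content was -0.21 and for mdx and Control -0.09. With each library's linear trend on GC content and length removed, the median log2 difference of the 46 went from 0.72 to 0.51. Limma then called 11 of them higher and 22 of all 831 listed genes, against 31 and 62 with the trend kept. Among the 11 were Atp13a3, Casc4, Ccnl1, Crebzf, Rbm45, Serp1, Ugcg and Zfp36l1. The 46 were chosen on this contrast, so their share of the calls is a description. The rule then chose 29 genes, 21 of which are among the 46, and the log2 difference went to -0.30 in Slc8a1 and -0.10 in Dzip3.

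**Figure D5:**
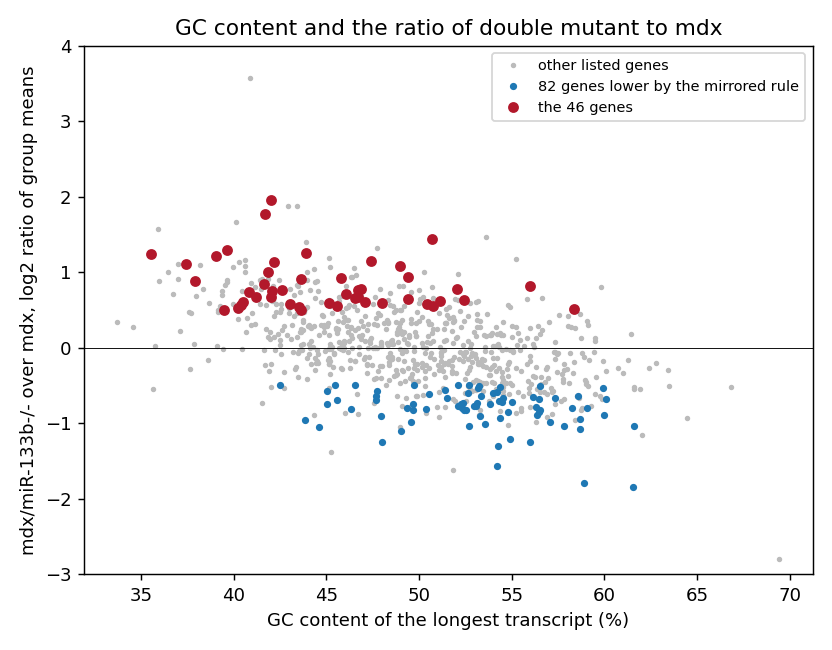
GC content of the longest transcript (x axis, percent) against the log2 ratio of mdx/miR-133b-/- to mdx means (y axis) for the listed genes, with the 46 genes in red and 82 genes of the mirrored rule in blue; 3 genes below the axis and 1 with a mean of 0 are not drawn. The red points centre on 43.8% GC and the blue points on 53.1%.

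The 46 genes were set beside gene lists of roles and cell types. On role lists there were 13 of them, and the lists of muscle fibre genes and of the cell types that whole muscle holds contained 0 of the 46. The bounds of the rule for mdx to Control largely fixed this 0, so nothing is read from it. All 13 listed macrophage genes (ratios 2.49 to 21.5) and all 14 matrix genes (1.65 to 8.63) lay above the bounds. The listed endothelial gene Flt1 (0.60) and lymphocyte gene Ighm (0.40) lay below them. In the double mutant against mdx, limma called 0 of 13 listed macrophage genes in either direction, with a median log2 difference of -0.20, and 1 of 14 matrix and fibro-adipogenic genes, Lox, which rose (median -0.11). All listed genes had a median of -0.04. Summed scaled reads of the macrophage list ran from 3206 to 12492 in the double mutant and from 6316 to 9981 in mdx, and those of the matrix list from 36291 to 65920 and from 50762 to 51809. Of 4 fast fibre genes, 3 fell (Actn3, Ckm and Pvalb), and the list sum was 256312 to 320334 in the double mutant against 375355 to 552424 in mdx. The 1 listed lymphocyte gene, Ighm, an immunoglobulin heavy chain, fell (0.325 times mdx, limma adjusted p = 0.042), with 38.4 to 122 scaled reads in the double mutant and 102 to 312 in mdx. The 1 listed endothelial gene, Flt1, was not called, and the lists of satellite cells, pericytes, Schwann cells, adipocytes and erythrocytes had 0 listed genes. Of 7 listed clock genes, none of them among the 46, limma called 3: Arntl, a clock activator, rose (2.49 times mdx, adjusted p = 0.0013), and Dbp (0.278 times, adjusted p = 0.00024) and Per2 (0.557 times, adjusted p = 0.044), which it drives, fell. Of 4 oxidative phosphorylation genes, 2 fell (Atp5a1 and Cox5a). The fast fibre list, Ckm, Myh4, Actn3 and Pvalb, summed to at least 256312 scaled reads in each of the 16 libraries, so fibre markers of the labelled tissue were present. In whole muscle, fewer cells of a type and less RNA per cell cannot be told apart, and the part of the lower fibre genes, of Ighm and of the clock genes in the values of the 46 was not tested.

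Neither targeted gene could be used to check the labels, since Dmd and the mature microRNA were not analysed here. A listed non-coding gene that spans the miR-133b hairpin, Gm28653 (chr1:20669882-20684298, plus strand), ran from 6.62 to 43.0 scaled reads in miR-133b-/-, from 20.0 to 72.6 in Control, from 294 to 541 in the double mutant and from 241 to 526 in mdx. The labels do not say which part of it is deleted, so it checks nothing. Each library held 2356990 to 6000033 reads in listed genes, and the 46 genes took 1.73 to 2.78% in the double mutant, 0.891 to 1.21% in mdx, 0.549 to 0.753% in Control and 0.533 to 1.17% in miR-133b-/-. Whether each library of a group is from its own animal is not stated in the labels. The p-values thus reflect the variation among these libraries, some or all of which may be technical.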

How the data were processed

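RNA of whole tibialis anterior muscle was sequenced in 16 libraries, 4 per group. The submitters' processing notes name HISAT2, HTSeq and the build GRCm38; versions, settings and use of strand are not stated in the sources used here. The deposited table holds a signal per gene and library: whole read counts that the authors multiplied by 1 factor per library (0.459 to 1), since division by the factor gave whole numbers to within 0.001 read for 100% of the values. Full depth is unknown. Libraries were grouped by title; the description field names another sample for 14 of the 16.

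Symbols, coordinates, GC content and 3′ UTRs come from GENCODE M21, which matched all 831 identifiers; promoters and the microRNA come from RefSeq tables of GRCm38.p6. The genes were chosen by ratios of arithmetic group means, with mitochondrial symbols and 7 further symbols left out. The members, roles, motifs and gene lists were chosen with earlier results of these data known.

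Log2(scaled value + 1) was fitted with limma 3.58.1 in R 4.3.3, as 1 model of the 4 group means across the 16 libraries. Variances were moderated by empirical Bayes with a trend, low values were not filtered, and p-values of all 831 genes were adjusted after Benjamini and Hochberg, with a threshold of 0.05. The fit was tested on simulated data. Fold changes on that scale understate changes of low genes. Genes named were the 12 largest ratios among members with a mean of at least 100, members on a gene list, members with an 8mer, members at least 1.2 times Control in miR-133b-/-, and genes nearest the thresholds; the others were named by role after their values were seen. Per-kb values divide by the longest transcript. Alternatives covered scaling factors, GC and length, thresholds, pseudocounts, filters, single libraries, a replicate block and limma-voom.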

Additional observations from a re-analysis of the deposited data

Results flagged for a closer look

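Each gene was checked in each group for a library far from the other 3, with Dixon's ratio of the gap to the range. Of 184 such groups, 14 had one, where chance alone flags about 1 in 20. In the double mutant the 3 were all library 4: Il1r1 at 1262 scaled reads, Rbm45 at 579 and Sema3e at 371. In Control, Celf2 was high in library 2 (2249.6) as was Gas2l3 (77.7), Il1r1 was high in library 4 (359), Serp1 in library 3 (472), and Ugcg was low in library 1 (418). In miR-133b-/-, Zfp36l1 was high in library 1 (1090.0), Litaf (127) and Lyn (759) in library 2, and Nav3 in library 3 (173). In mdx, Ugcg was high in library 2 (698) and Dsel low in library 3 (126). The reasons were not tested.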

How the results depend on the processing

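The number of genes that met the rule, 46, was 70 with relative log expression factors and 29 with each library's GC and length trend removed; it was 35 to 53 under the other planned scaling, filter, mean and threshold choices and 40 to 54 without single libraries. Calls among the 46 in the double mutant against mdx, 31 by limma, were 20 with relative log expression factors, 11 with the GC and length trend removed, and 8 to 32 without single libraries. With the replicate number as a block they were 22, and 8 with the replicate block and the trend removed together. Libraries of the same number were not consistently alike. Over 24 same-number pairs the correlation of deviations ran from -0.28 to 0.25, 2 were above 0.1, and 1 of 16 libraries correlated best with its own number. These correlations cannot exclude that libraries of 1 number shared a batch. Over all listed genes the 162 calls became 120 with the block, 56 with the trend removed and 49 to 197 without single libraries. Calls among the 46 in mdx against Control, 0 by limma, were 1 with relative log expression factors, 2 with the trend removed, 2 with the replicate block and the trend removed, 3 in a fit of the 2 groups alone, and 0 to 1 without single libraries. The interaction was called in 0 to 16 of the 46 without single libraries, and miR-133b-/- against Control in 0 under every setting run. The causes were not tested. A planned count model was not run, as the deposited values are scaled. Depth is known only over the listed genes, so what it limits beyond them cannot be given.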
